A study of Mus musculus with 6 samples.

Results

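Perineuronal nets are lattices of extracellular matrix that wrap the cell body and proximal dendrites of some neurons, above all the fast-spiking interneurons that express parvalbumin (PV). The expression of 8 genes that encode core components of these nets was examined in the pre-limbic cortex (PLc) of the medial frontal lobe in mice treated with ketamine or saline. The genes were chosen by name. They are the lecticans Acan, Bcan, Ncan and Vcan, the link proteins Hapln1 and Hapln4, tenascin-R (Tnr) and the receptor-type phosphatase Ptprz1. All 8 were found among the 37620 genes listed, and all 8 passed the filter on low values that left 16127 genes for testing.

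All mice were C57Bl/6 animals, 9 weeks old. The study's methods name male mice. Mice of the ketamine group received ketamine at 30 mg/kg intraperitoneally once a day for 5 days, mice of the saline group received the vehicle on the same schedule, and the PLc was dissected 2 days after the last injection. RNA from each mouse was sequenced as its own library, from saline mice 1, 6 and 10 and ketamine mice 3, 5 and 9, so n = 3 in each group. The values are normalized counts, which are read counts of a gene divided by a size factor for the library. They measure RNA in dissected bulk tissue, in which fewer cells of a type and less RNA per cell cannot be told apart, and neither protein nor assembled nets were measured.

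In a net, long chains of hyaluronan at the cell surface carry the lecticans, which are proteoglycans with side chains of chondroitin sulfate. Link proteins fasten the lecticans to hyaluronan, and tenascin-R joins the far ends of several lecticans to each other. Nets mature late in development, when they stabilise synapses on PV interneurons and limit plasticity. Their parts are made by several cell types, including the enwrapped neurons, astrocytes and cells of the oligodendrocyte lineage.

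The libraries held between 26273436 and 32643726 reads, and some of them differed in the marker RNA of other cells and regions. Summed over 16 markers, striatal neuron RNA was between 13555 and 17458 normalized counts in saline mice, but came to 82377 for ketamine mouse 3, 44094 for mouse 5 and 14396 for mouse 9. The sum of 10 olfactory bulb markers was between 1873 and 2686 in saline mice, then 4405 and 3373 with ketamine mice 3 and 5, and 13071 with mouse 9. Saline mouse 10 had 410291 normalized counts over 10 oligodendrocyte markers, against 48162 to 175124 in the other 5 mice. The cortical excitatory marker Slc17a7, a vesicular glutamate transporter, was present at 22152 to 49417 normalized counts in every mouse, and no marker of the PV interneuron, GABA neuron or excitatory neuron lists was at 0. The fold changes of the net genes, of Pvalb and of the matrix genes Smoc1 and Crtac1 are also given without such a library. Those fits still hold ketamine libraries with a bulb sum above the saline range, since the ketamine mice all had one. For most marker genes no such fold change is given. Shares and ratios are given in each mouse.

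Of the 8 genes, Hapln4 was the single one whose groups did not overlap. Of all tested genes, 4.66% were separated in this way downwards and 5.69% upwards. Hapln4 was lower in all 3 ketamine mice than in all 3 saline mice, at 0.571 times the saline level as fitted on the log2 scale. Acan, Bcan, Ncan, Vcan, Hapln1, Tnr and Ptprz1 overlapped between the groups. At an adjusted p under 0.05, limma on log2(normalized count + 1) called 0 of the 8 genes and 0.0% of all genes tested. At that threshold edgeR also called 0 of the 8 and 0 of all genes tested. At an unadjusted p under 0.05, limma found 1 of the 8, Hapln4, where 5.81% of all tested genes passed. DESeq2 on the reads recovered from the deposited values called 1 of the 8, again Hapln4, and 1.13% of all genes. The 4 genes with a positive and the 4 with a negative log2 fold change had a median of 0.04, against -0.01 over all tested genes. Exact permutation tests of the 7 other genes gave two-sided p-values between 0.4 and 1.0.

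**Figure D1:**
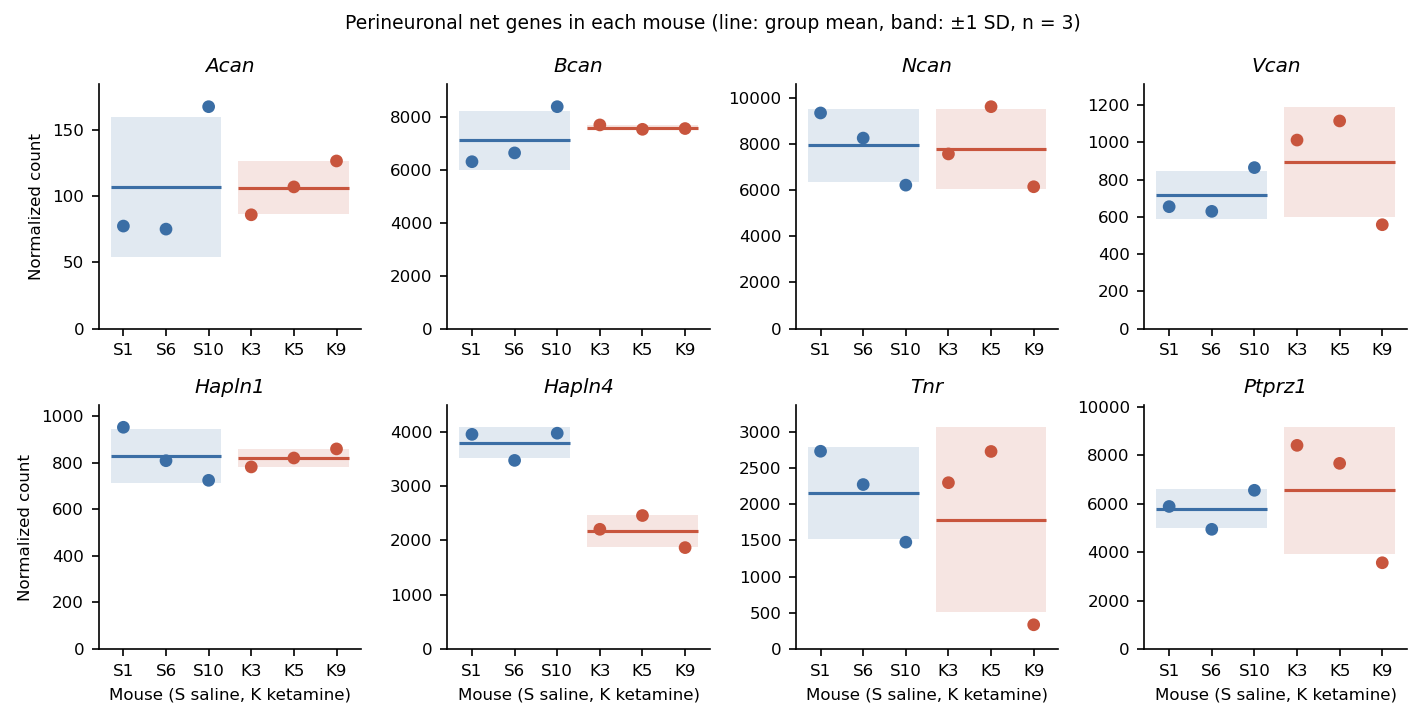
Normalized counts (vertical axes, from 0) of the 8 net genes in saline mice 1, 6 and 10 (blue) and ketamine mice 3, 5 and 9 (red). Points are single mice, lines are group means and bands are 1 SD on either side (n = 3). The groups are apart for Hapln4 alone, where 4.66% of all tested genes were apart downwards and 5.69% upwards. Ketamine mouse 9 is the lowest mouse for Ncan, Vcan, Hapln4, Tnr and Ptprz1.

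Levels can be compared between genes after division by the length of their exons. In saline mice, Bcan stood highest with 2176 ± 342 normalized counts per kb of exon (SD, n = 3), at the 96.0th percentile of tested genes with a length. Ncan followed with 1103 ± 221 per kb and Hapln4 with 1063 ± 79.2 per kb, and these 2 levels overlapped between saline mice. Ptprz1 had 718 ± 100.3 per kb and Tnr 436 ± 128 per kb. Hapln1 was near the middle of all genes at 164 ± 22.8 per kb, where the median tested gene had 156 per kb. Vcan, at 49.5 ± 8.92 per kb, and Acan, at 14.5 ± 7.19 per kb, were the scarcest, at the 27.6th and 12.3rd percentile. Apart from Ncan and Hapln4, no 2 neighbours in this order overlapped between saline mice. In ketamine mice Hapln4 had 609 ± 82.9 per kb, and all 3 mice were below the range of Ncan, whose lowest ketamine mouse had 854 per kb.

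Lecticans differ in the length of the core protein between their ends, and each has its own main source in brain. Acan, aggrecan, is the lectican that marks mature nets and is made largely by the neurons that carry them. Its gene (ENSMUSG00000030607) is found in the mm9 build on chromosome 7 (plus strand) from 86198369 to 86259985. Acan had 77.6, 75.3 and 168 normalized counts across saline mice 1, 6 and 10, against 86.1, 107 and 127 for ketamine mice 3, 5 and 9. Saline mouse 10 was the highest of all 6 and the other saline mice were the lowest, so the ketamine mice lay within the saline range. Acan had a log2 fold change of 0.08, with a standard error of 0.348, a 95% interval of -0.73 to 0.90 and an adjusted p of 0.999 by limma. Without saline mouse 10 it was 0.46. The gene rests on 78 to 153 reads in a library, the fewest of the 8.

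Bcan, brevican, is a short lectican of the adult brain made mainly by astrocytes and also by neurons. The gene (ENSMUSG00000004892) is on the minus strand of chromosome 3 from 87791453 to 87804278. Bcan had 6304, 6636 and 8383 normalized counts in the saline mice (in the order 1, 6, 10) and 7694, 7528 and 7557 in the ketamine mice (3, 5, 9). The ketamine mice were close together and inside the wider saline range, of which mouse 10 was the top. For Bcan the log2 fold change was 0.11, with a standard error of 0.147, a 95% interval of -0.24 to 0.45 and an adjusted p of 0.999 by limma. It was 0.23 without saline mouse 10 and 0.03 without saline mouse 1.

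Ncan, neurocan, is a lectican made by neurons and astrocytes that is most abundant in the young brain. Its gene (ENSMUSG00000002341) is on the minus strand of chromosome 8 from 72616984 to 72644772. Ncan had 9342, 8253 and 6213 normalized counts across saline mice 1, 6 and 10, against 7566, 9614 and 6144 for ketamine mice 3, 5 and 9. The ranges covered each other almost whole, with saline mouse 10 and ketamine mouse 9 at the bottom. Ncan had a log2 fold change of -0.03, with a standard error of 0.221, a 95% interval of -0.55 to 0.49 and an adjusted p of 0.999 by limma. It was -0.20 without saline mouse 10 and 0.12 without ketamine mouse 9.

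Vcan, versican, is the largest lectican, and in adult brain its RNA comes mostly from oligodendrocyte precursor cells (OPCs). The gene (ENSMUSG00000021614), on the minus strand of chromosome 13 from 89794915 to 89882117, is overlapped by Gm16318 and Gm4117 on the other strand, with which it shares 0 exon bases. Vcan had 654, 629 and 864 normalized counts across saline mice 1, 6 and 10, against 1012, 1115 and 557 for ketamine mice 3, 5 and 9. Ketamine mice 3 and 5 were the highest of all 6, whereas ketamine mouse 9 was the lowest. Vcan had a log2 fold change of 0.27, with a standard error of 0.280, a 95% interval of -0.38 to 0.93 and an adjusted p of 0.999 by limma. It was 0.58 without ketamine mouse 9 and -0.35 without ketamine mice 3 and 5, a fit in which the spread of the lone ketamine mouse was taken to be that of the saline mice.

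The make-up of the lectican RNA within a library does not depend on the size factor. The lectican total was 3284, 3232 and 3512 normalized counts per kb across saline mice 1, 6 and 10, against 3488, 3732 and 3223 for ketamine mice 3, 5 and 9, again with overlap. Bcan made up 58.8%, 62.8% and 73.1% of it in the saline mice and 67.5%, 61.7% and 71.8% in the ketamine mice. Ncan made up 39.5%, 35.5% and 24.6% in saline and 30.1%, 35.8% and 26.5% in ketamine. In both groups the mouse with the highest share of Bcan had the lowest share of Ncan, as it must where these 2 genes hold nearly all of the total. Vcan took between 1.20% and 2.06% of the total, and Acan between 0.317% and 0.650%. The group means differed by 2.12 percentage points for Bcan, -2.39 for Ncan, 0.281 for Vcan and -0.00885 for Acan (ketamine minus saline). The 4 exact permutation tests gave two-sided p-values of 0.8, 0.8, 0.4 and 1.0, each 1.0 after Benjamini-Hochberg adjustment, and 0.1 is the smallest that 3 mice against 3 allow.

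**Figure D2:**
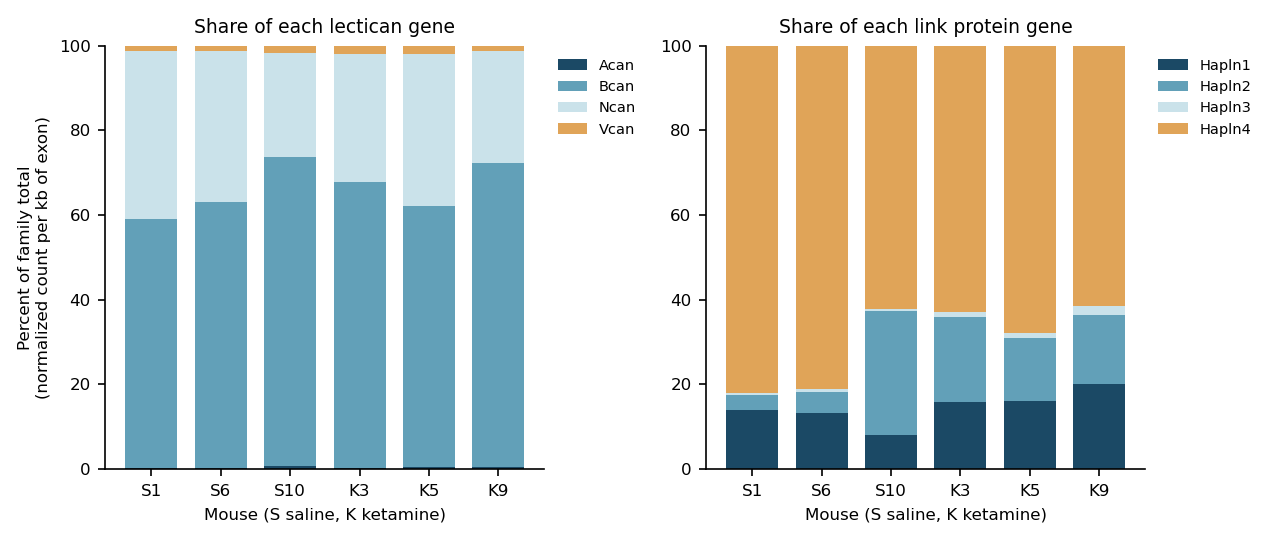
Share of each gene (percent of the family total in normalized counts per kb of exon, vertical axis) among the 4 lecticans (left) and the 4 link proteins (right) in each mouse. Bcan and Ncan held nearly all lectican RNA in both groups, and the share of Hapln2 among link proteins was 29.3% in saline mouse 10 against 3.56% and 4.79% in saline mice 1 and 6.

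The link proteins differed from each other. Hapln1, also called cartilage link protein, is made by net-bearing neurons and is needed for nets of normal form. The gene (ENSMUSG00000021613) is on the plus strand of chromosome 13 from 89680241 to 89751437. Hapln1 had 951, 808 and 724 normalized counts across saline mice 1, 6 and 10, against 781, 819 and 858 for ketamine mice 3, 5 and 9. All 3 ketamine mice lay inside the saline range. The resulting log2 fold change was -0.01, with a standard error of 0.145, a 95% interval of -0.35 to 0.33 and an adjusted p of 0.999 by limma, and its sign turned to 0.01 with TMM size factors and to 0.02 with upper-quartile scaling.

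Hapln4, the brain link protein that holds brevican in nets, is encoded on the plus strand of chromosome 8 from 72607428 to 72614761 (ENSMUSG00000007594). Hapln4 had 3955, 3475 and 3976 normalized counts across saline mice 1, 6 and 10, against 2206, 2460.1 and 1869 for ketamine mice 3, 5 and 9. The highest ketamine mouse was below the lowest saline mouse, with no overlap, and the mice of a group were close together. Such a separation was found for many genes, downwards in 4.66% and upwards in 5.69% of those tested. Group means were 3802 ± 283 and 2179 ± 296 (SD, n = 3). Hapln4 had a log2 fold change of -0.81, with a standard error of 0.145, a 95% interval of -1.15 to -0.47 and a p of 0.000756 by limma, or 0.283 after adjustment, the 43rd smallest limma p of all tested genes. The exact permutation test gave 0.1, the smallest value possible here.

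The count models differed on Hapln4. With DESeq2 its log2 fold change was -0.80, with a standard error of 0.171 and an adjusted p of 0.000711, one of 37 genes, or 0.229% of those tested, that it called lower in ketamine. The quasi-likelihood test of edgeR, which called 0 of all tested genes, gave -0.79 with an adjusted p of 0.314. With each mouse left out in turn, the limma value stayed between -0.90 and -0.70. With ketamine mice 3 and 5 left out together it was -1.02, with mouse 9 as the lone ketamine library. Mouse 9 had the highest sum of olfactory bulb markers, 13071 normalized counts. Ketamine mice 3 and 5 had 4405 and 3373, against at most 2686 in saline mice. No omission therefore removed this group difference in bulb markers, and its part in the Hapln4 result was not tested. DESeq2 without saline mouse 1 gave -0.77 with an adjusted p of 0.0870, the one omission that ended its call. Hapln4 had a negative log2 fold change in each of these fits, and it passed the adjusted threshold with DESeq2 alone.

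**Figure D3:**
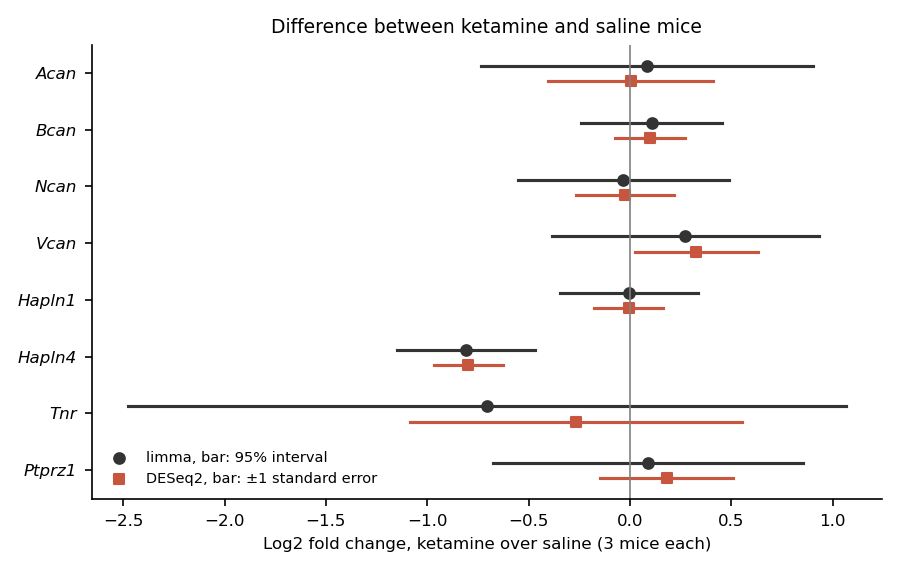
Log2 fold change of each net gene, ketamine over saline (horizontal axis, 3 mice in each group), from limma with 95% intervals (black circles) and from DESeq2 with 1 standard error on either side (red squares). The limma interval lies below 0 for Hapln4 alone, from -1.15 to -0.47, and that of Tnr is the widest, from -2.48 to 1.07.

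Each lectican gene has a link protein gene as its neighbour in the genome, and the net genes include both partners of 2 such pairs. Hapln4 and Ncan run towards each other on chromosome 8 with 2222 bases between them, and Hapln1 and Vcan on chromosome 13 with 43477 bases between them. Hapln1 and Vcan each overlapped between the groups. Hapln4 was lower in the ketamine mice beside Ncan, which overlapped, and the ratio of Hapln4 to Ncan was 0.423, 0.421 and 0.640 across saline mice 1, 6 and 10, against 0.292, 0.256 and 0.304 for ketamine mice 3, 5 and 9. Against Bcan, its partner in nets, Hapln4 had ratios of 0.627, 0.524 and 0.474 in saline and 0.287, 0.327 and 0.247 in ketamine. The ratio of Hapln4 to Hapln1 was 4.16, 4.30 and 5.49 in saline and 2.82, 3.0 and 2.18 in ketamine. None of these 3 ratios overlapped between the groups. The ratios were chosen after the values were seen and were not tested. Because they are formed within a library, size factors do not enter them.

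Of the link proteins outside the 8 genes, Hapln2 belongs to the nodes of Ranvier in myelinated axons and Hapln3 is found mainly outside the brain. Hapln2 had 114, 136 and 1245 normalized counts across saline mice 1, 6 and 10, against 469, 361 and 329 for ketamine mice 3, 5 and 9. It was highest in the mouse with the most oligodendrocyte marker RNA. The share of Hapln4 in the RNA of all 4 link proteins, per kb, was 82.0%, 81.1% and 62.1% in saline and 62.9%, 67.9% and 61.5% in ketamine, so this share overlapped although the level of Hapln4 itself did not. Hapln3, at 39.1, 37.6 and 61.6 normalized counts in ketamine against 22.03, 32.8 and 30.8 in saline, was the scarcest link protein. Its ketamine mice were all above its saline mice, as for 5.69% of all tested genes. That is the opposite direction to Hapln4, and neither limma nor DESeq2 called Hapln3.

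Neuron markers also differed between the groups beside Hapln4. Of the 10 excitatory neuron markers, 9 had negative log2 fold changes, within a range of -1.35 to 0.58. The sum of the 10 was 195484 to 245618 normalized counts in saline mice and 112103 to 186478 in ketamine mice, without overlap. Slc17a6 in this list also stands in the olfactory bulb list. Of the 12 PV interneuron markers, 8 had negative log2 fold changes, within a range of -1.20 to 2.17. DESeq2 called 2 of them lower and 1 higher, beside 1.13% of all tested genes. The PV sum, which includes Tac1 of the striatal list, overlapped at 29224 to 39461 in saline and 29297 to 37632 in ketamine. None of these markers was at 0. All 8 GABA neuron markers had positive log2 fold changes, with a sum of 25884 to 30353 in saline and 35139 to 53861 in ketamine. For 7 of the 8 all ketamine mice were above all saline mice, as for 5.69% of all tested genes. DESeq2 called 4 of the 8 higher, where it called 1.13% of all tested genes. Dlx2 in the GABA list also stands in the neuroblast list. Every ketamine library had a bulb marker sum above the saline range, and ketamine mice 3 and 5 had raised striatal sums. The part of striatal or bulb RNA in the GABA neuron marker values was not tested. The part of the neuron markers above in the result for Hapln4 was not tested either.

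Pvalb, the gene of PV itself, had 1105, 893 and 2261 normalized counts across saline mice 1, 6 and 10, against 535, 516 and 669.9 for ketamine mice 3, 5 and 9. The groups did not overlap (log2 fold change -1.20 with a standard error of 0.334; adjusted p = 0.579 by limma and 0.0321 by DESeq2). Without saline mouse 10 it was -0.80 by limma and -0.79 by DESeq2, which still called it (adjusted p = 0.0250). The call of DESeq2 ended without saline mouse 1, ketamine mouse 3 or ketamine mouse 5, with adjusted p-values of 0.0837, 0.292 and 0.162. Acan did not share this separation. The ratio of Acan to Pvalb was 0.0702, 0.0843 and 0.0743 in the saline mice and 0.161, 0.208 and 0.189 in the ketamine mice, without overlap, whereas Hapln4 to Pvalb was 3.58, 3.89 and 1.76 in saline and 4.12, 4.76 and 2.79 in ketamine, with overlap. In saline mouse 10, Acan and Pvalb were both above the other saline mice. These ratios, too, were chosen after seeing the values and have no test.

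**Figure D4:**
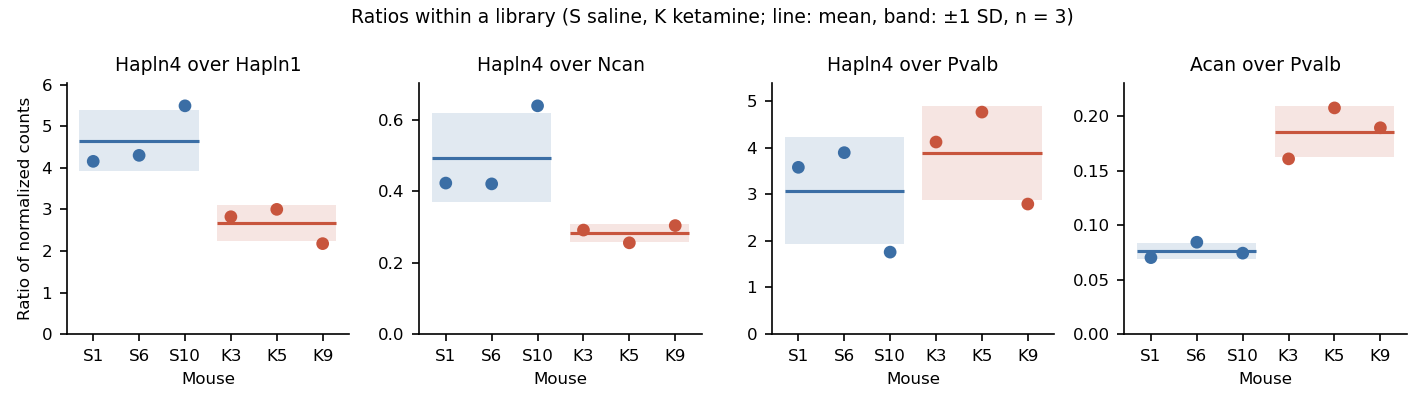
Ratios of normalized counts within each library (vertical axes, from 0), with points for single mice, lines for group means and bands of 1 SD on either side (n = 3). Hapln4 over Hapln1 and over Ncan was lower in every ketamine mouse, Hapln4 over Pvalb overlapped, and Acan over Pvalb was 0.161 to 0.208 in ketamine mice against 0.0702 to 0.0843 in saline mice.

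Tenascin-R is a multi-armed glycoprotein that cross-links lecticans, and its RNA comes from cells of the oligodendrocyte lineage and some interneurons. Tnr (ENSMUSG00000015829) is on the plus strand of chromosome 1 from 161667641 to 161855053. It had 2729, 2269.9 and 1475 normalized counts across saline mice 1, 6 and 10, against 2295, 2726 and 335 for ketamine mice 3, 5 and 9. Ketamine mouse 9 stood far below the rest, with 370 reads, and the next lowest mouse had 4.40 times its level. From the lowest to the highest mouse Tnr spanned 8.14-fold, more than 97.0% of tested genes, where the median gene spanned 1.64-fold. The log2 fold change of Tnr was -0.71, with a standard error of 0.754, a 95% interval of -2.48 to 1.07 and an adjusted p of 0.999 by limma. Without ketamine mouse 9 it was 0.26. With that mouse as the lone ketamine library it was -2.64 by limma, with no call, and -2.68 by DESeq2, which then called Tnr.

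Ptprz1 encodes a receptor-type tyrosine phosphatase with chondroitin sulfate chains, of which a secreted form, phosphacan, binds tenascin-R and cell adhesion molecules in nets. It is made by astrocytes and OPCs, and counts per gene do not separate its forms. The gene (ENSMUSG00000068748) is on the plus strand of chromosome 6 from 22825502 to 23002916. Ptprz1 had 5886, 4943 and 6554 normalized counts across saline mice 1, 6 and 10, against 8408, 7665 and 3563 for ketamine mice 3, 5 and 9. As for Vcan, ketamine mice 3 and 5 were the highest of all 6 and ketamine mouse 9 the lowest. Ptprz1 had a log2 fold change of 0.09, with a standard error of 0.325, a 95% interval of -0.67 to 0.85 and an adjusted p of 0.999 by limma. It was 0.48 without ketamine mouse 9 and -0.69 without ketamine mice 3 and 5.

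Vcan, Tnr and Ptprz1, which OPCs are known to express, had their lowest value in ketamine mouse 9, as did Ncan and Hapln4. The OPC markers Pdgfra, a growth factor receptor, and Cspg4, the NG2 proteoglycan, were also lowest there. Pdgfra had 1531, 1479 and 1765 normalized counts across saline mice 1, 6 and 10, against 2216, 1961 and 1139 for ketamine mice 3, 5 and 9. Cspg4 had 509.6, 576 and 631 in saline and 611, 759 and 317 in ketamine. C1ql1, the third marker of that list, was instead highest in ketamine mouse 9, with 616 normalized counts against 179 to 326 in the other mice. The sum of 11 OPC markers without Tnr was 8937 in ketamine mouse 9, within the range of 7005 to 13747 over the other 5 mice, and Pcdh15, the 1 marker of the list not tested, was at 0 in every mouse. Olfactory bulb markers were highest in the same mouse, where Eomes, Tbx21 and Cdhr1, which mark its projection neurons, had 1129, 362 and 4006 normalized counts against at most 14.5, 3.86 and 119.7 in a saline mouse. Striatal neuron markers, as described, were highest in ketamine mice 3 and 5, where Vcan and Ptprz1 were highest. The part of these cells in the values of Vcan, Tnr and Ptprz1 was not tested.

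**Figure D5:**
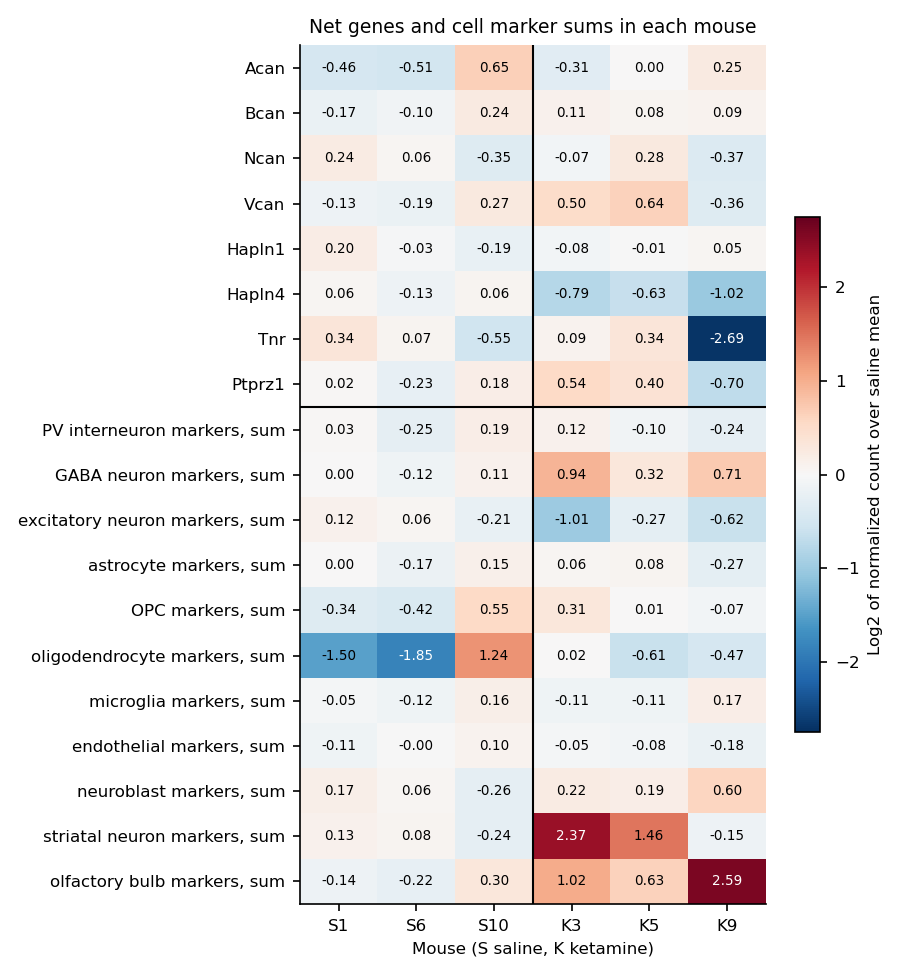
Log2 of the normalized count over the mean of the saline mice (colour and number) for the 8 net genes and for summed cell marker lists, in each mouse. Tnr is at -2.69 and the olfactory bulb markers at 2.59 in ketamine mouse 9, and striatal neuron markers are at 2.37 and 1.46 in ketamine mice 3 and 5.

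Among the net genes, Vcan and Ptprz1 had the profiles most like each other over the 6 mice. Likeness was measured as the mean absolute difference between log2 values centred on each gene's own mean. It was 0.136 between these 2 genes, so that Ptprz1 was the 86th nearest of all tested genes to Vcan and Vcan the 111th nearest to Ptprz1. Every other pair of members was farther apart. The nearest of all tested genes was Notch1 for Vcan (0.0516) and Inf2 for Ptprz1 (0.0521), 6230409E13Rik for Tnr (0.0361) and Lsm11 for Hapln4 (0.0150). For Bcan it was Pecam1 (0.0204), for Ncan Tacc1 (0.0370), for Hapln1 Slc52a2 (0.0186) and for Acan Elovl1 (0.0929). Lsm11 had 1093, 936 and 1097 normalized counts across saline mice 1, 6 and 10, against 608, 672 and 528 for ketamine mice 3, 5 and 9, which repeats the order of Hapln4. The nearest of 16127 genes over 6 mice is a description and was not tested.

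The sequence before the start site is shown for the pair with like profiles and for Tnr. Tnr shared their lowest mouse, as Ncan and Hapln4 also did, but not their order in the saline mice. RefSeq promoters on GRCm38.p6 were matched for 7 of the 8 members, all except Hapln4. The 250 bases before the start are given 5′ to 3′ on the strand of the gene, at chr13:89742513-89742762 (minus) for Vcan, chr6:22875252-22875501 (plus) for Ptprz1 and chr1:159523519-159523768 (plus) for Tnr. Capitals mark matches, on either strand, to the GC box of SP1 (GGGCGG), to the CCAAT box (CCAAT) or to a form of the SOX motif (ACAAAG).
Vcan: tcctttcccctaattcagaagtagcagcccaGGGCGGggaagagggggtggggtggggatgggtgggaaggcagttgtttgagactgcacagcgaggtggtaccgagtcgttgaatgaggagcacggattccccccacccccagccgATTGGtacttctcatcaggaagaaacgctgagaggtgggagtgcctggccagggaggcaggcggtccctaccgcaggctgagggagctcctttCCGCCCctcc
Ptprz1: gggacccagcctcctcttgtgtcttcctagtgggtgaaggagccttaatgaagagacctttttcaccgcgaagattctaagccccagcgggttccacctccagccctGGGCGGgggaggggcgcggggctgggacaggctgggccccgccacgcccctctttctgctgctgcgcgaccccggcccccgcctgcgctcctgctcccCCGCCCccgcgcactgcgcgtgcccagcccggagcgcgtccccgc
Tnr: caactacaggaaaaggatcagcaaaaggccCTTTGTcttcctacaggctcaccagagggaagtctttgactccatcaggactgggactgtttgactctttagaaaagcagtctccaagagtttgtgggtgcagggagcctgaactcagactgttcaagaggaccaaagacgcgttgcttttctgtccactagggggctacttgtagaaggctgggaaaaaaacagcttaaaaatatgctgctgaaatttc

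Vcan and Ptprz1 each held 2 matches to the GC box, and Tnr held 0. At least 1 match was found in 32.7% of 32851 RefSeq promoters, and also in those of Acan, Bcan and Ncan. Vcan also had 1 match to the CCAAT box, where 33.8% of all promoters had at least 1. Tnr had 1 match to ACAAAG, where 16.5% had at least 1. The 3 motifs do not overlap in the windows shown, and neither TATAAA (12.4% of promoters) nor the E-box CACGTG (6.02%) was found in them. Their content of G and C was 62.4% for Vcan, 71.6% for Ptprz1 and 46.8% for Tnr, where the median promoter had 52.4%. A match of letters does not show that a factor binds.

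Genes that make, bind or cut the net were listed in 5 groups, written with earlier results of these data known. No group was tested as a set. Together the groups held 140 genes, of which 132 were tested. Of these, 72 had positive and 60 negative log2 fold changes, with a median of 0.06 against -0.01 for all tested genes. At an adjusted p under 0.05 limma called 0 of them, and 15 of the 132 had an unadjusted p under 0.05, where 5.81% of all tested genes did. DESeq2 called 2 of the 132, both higher in ketamine, beside 1.13% of all tested genes. The ketamine mice were all above the saline mice for 13 of the 132 and all below them for 5, while 5.69% and 4.66% of all tested genes were so separated.

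Hyaluronan genes comprise synthases, hyaluronidases and other binders of the chain. Of 13 tested, 9 had positive and 4 negative log2 fold changes, with a median of 0.40, and limma and DESeq2 each called 0. Hapln2, described above, Hyal2 and Tnfaip6 had the highest levels per kb. Hyal2, a hyaluronidase, had 192, 199 and 215 normalized counts across saline mice 1, 6 and 10, against 286, 200.4 and 341 for ketamine mice 3, 5 and 9, with overlap at mouse 5. Tnfaip6, a secreted hyaluronan-binding protein, had its highest value, 407, in saline mouse 10, against 63.2 and 74.3 in the other saline mice and 171 to 228 in ketamine.

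Enzymes that build and sulfate chondroitin sulfate had the narrowest range of the 5 lists. Of 27 tested, 11 had positive and 16 negative log2 fold changes, with a median of -0.02 and a range of -0.34 to 0.56, and none was called by limma or DESeq2, with 1 gene at an unadjusted limma p under 0.05. B3gat3, which completes the linker that joins the chain to its core protein, had a log2 fold change of -0.13. Chpf, a chain-polymerizing factor, had -0.03, from 2303, 2361 and 2257 normalized counts in saline mice and 2154, 2211 and 2431 in ketamine mice. Papss1, which makes the sulfate donor, had 2197, 2091 and 2648 in saline and 2333, 2109 and 2465 in ketamine, with overlap.

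Among proteases of the matrix and their inhibitors, 16 of 24 tested had positive log2 fold changes, with a median of 0.20. Limma and DESeq2 called 0, and 5 of the 24 had an unadjusted limma p under 0.05, against 5.81% of all tested genes. Timp2, an inhibitor of matrix metalloproteinases, had 8367, 8037 and 5688 normalized counts across saline mice 1, 6 and 10, against 11279, 9219 and 9263 for ketamine mice 3, 5 and 9. Its ketamine mice were all above its saline mice, with a log2 fold change of 0.44 and a standard error of 0.189 (limma, adjusted p = 0.860), or 0.27 without saline mouse 10. The metalloproteinase Mmp17 had a log2 fold change of -0.41 and the cysteine protease inhibitor Cst3 one of 0.33, both with overlap.

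Receptors and partners of the net had a median log2 fold change of -0.09 over 29 tested genes, 13 positive and 16 negative, with 2 at an unadjusted limma p under 0.05 and 0 called by limma or DESeq2. Ptprs, the phosphatase that binds chondroitin sulfate, had 15222, 14229 and 10914 normalized counts across saline mice 1, 6 and 10, against 11908, 15166 and 7468 for ketamine mice 3, 5 and 9, with overlap. Ptn, pleiotrophin, a secreted ligand of Ptprz1, had 8278, 6938 and 5274 in saline and 7057, 7076 and 11671 in ketamine. It was highest in ketamine mouse 9, the library with the highest bulb marker sum, where Ptprz1 was lowest. A relation between Ptn and Ptprz1 was not tested. Nptx1, a synaptic pentraxin that also stands in the excitatory marker list, had 11138, 9944 and 12100.5 in saline and 5608, 8937 and 4574 in ketamine. The groups of Nptx1 did not overlap, with a log2 fold change of -0.85 and a standard error of 0.249 (adjusted p = 0.617 by limma and 0.176 by DESeq2). Without ketamine mouse 5 DESeq2 called Nptx1 (-1.11, adjusted p = 9.72e-06), and without ketamine mouse 9 the limma value was -0.64.

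In the list of other matrix proteins, 23 of 39 tested had positive log2 fold changes, with a median of 0.12. Both genes that DESeq2 called were in this list of 39, where it called 1.13% of all tested genes. This list, too, was written with earlier results of these data known, and the count was not tested. Limma called 0, with 6 of the 39 at an unadjusted p under 0.05, against 5.81% of all. Smoc1, a calcium-binding matrix protein, had 237, 288 and 326 normalized counts across saline mice 1, 6 and 10, against 551, 463 and 931 for ketamine mice 3, 5 and 9 (log2 fold change 1.14, standard error 0.276, adjusted p = 0.416 by limma and 0.0164 by DESeq2). Crtac1, cartilage acidic protein, had 1097, 995 and 1451 in saline and 1947, 2369.8 and 3549.6 in ketamine (1.12, standard error 0.250, adjusted p = 0.380 by limma and 0.00677 by DESeq2). For both genes all ketamine mice were above all saline mice, and ketamine mouse 9 was the highest. Without ketamine mouse 9, DESeq2 gave 0.85 for Smoc1 (adjusted p = 0.0122) and 0.88 for Crtac1 (adjusted p = 0.00798). The call of Smoc1 ended without saline mouse 1, saline mouse 6 or ketamine mouse 3 (adjusted p = 0.306, 0.190 and 0.0643), and that of Crtac1 without saline mouse 1 or 6 (adjusted p = 0.168 and 0.189). The proteoglycans Cspg5 and Spock2 and the matrix protein Sparcl1, the most abundant of the list per kb, had log2 fold changes of 0.06, -0.02 and -0.14 with overlap.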

How the data were processed

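The PLc of 3 saline and 3 ketamine mice was compared, with condition and mouse number taken from the labels. Per the labels and the study's methods, reads were aligned to mm9 with TopHat2 2.0.11, counted per gene with HTSeq and analysed with DESeq2. The deposited table gives a signal for each gene: the authors divided its read count by the library's size factor, and kept 2 decimals. The annotation and the strand setting are not given in the sources used here, so reads of genes on opposite strands of a locus may be mixed.

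In each library, at least 99.992% of values were multiples of the worth of 1 read, within a tolerance of 0.0051 normalized counts, which gave the reads before division. Log2(normalized count + 1) was compared with limma 3.58.1 (R 4.3.3, with a trend) for the 16127 genes whose mean over the mice reached 10, two-sided, with Benjamini-Hochberg adjustment over all of them and a threshold of 0.05. Adding 1 understates fold changes of scarce genes. The edgeR 4.0.16 quasi-likelihood test and DESeq2 1.42.0 were run on the recovered reads. The functions were tested on simulated data. Nothing in the labels ties mice across groups or states litters, so p-values measure the spread between these samples.

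Coordinates and exon lengths are from GENCODE M1 on mm9, in which 37205 of 37620 identifiers were found. The members and gene lists were chosen with earlier results of these data known. The genes named are the 8 members, in each list of net genes the 3 with the highest level per kb and those called, and the nearest profile to each member. For some marker lists, genes among the first 3 are named too. Others are marked. The DESeq2 fits with mice left out, and all such fits of genes outside the members, were added after seeing the data.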

Additional observations from a re-analysis of the deposited data

How the results depend on the processing

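Hapln4 kept its negative log2 fold change in all 16 alternatives to the main limma fit. Values were between -0.81 and -0.78 over 9 changes of pseudocount, filter, scaling, trend or test. The fits with mice left out all kept ketamine mice whose olfactory bulb marker sum was above the saline range. The number of genes called went from 0 by limma to 182 by DESeq2, the number of net genes from 0 to 1, and that of the 5 net lists from 0 to 2. The cause of this difference between the tests was not tested. With each mouse left out in turn, limma called 0 members and 0 to 1 genes, with 1 without ketamine mouse 5 or 9. DESeq2 called 83, 93 and 501 genes without saline mice 1, 6 and 10, and 103, 274 and 437 without ketamine mice 3, 5 and 9. It called 0 to 1 members, with 0 without saline mouse 1, where Hapln4 had -0.77. Without ketamine mice 3 and 5 DESeq2 called 1268 genes and 2 members, Hapln4 and Tnr.

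The sign of 5 members depended on single mice. Leaving each out in turn gave -0.11 to 0.46 for Acan, -0.20 to 0.12 for Ncan, -0.10 to 0.10 for Hapln1, -1.25 to 0.26 for Tnr and -0.14 to 0.48 for Ptprz1, on the log2 scale. Bcan, at 0.03 to 0.23, and Vcan, at 0.08 to 0.58, stayed positive. Without ketamine mice 3 and 5, Vcan was -0.35, Ptprz1 -0.69 and Hapln1 0.062. Hapln1 was also 0.0093 with TMM, 0.023 with upper-quartile scaling and 0.0044 with edgeR. Over the 9 changes of processing, Tnr had the widest range of the members, from -0.71 to -0.26. The lectican shares differed by -0.0662 to 0.102 percentage points for Acan, -0.945 to 6.2 for Bcan, -6.70 to 0.776 for Ncan and 0.126 to 0.561 for Vcan when a mouse was left out. Without division by length, no share changed direction, but the difference for Vcan went from 0.281 to 0.858 points. No paired analysis was possible because the groups share no mouse numbers.

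Depth limits Acan most, with at most 153 reads in a library. An exact test of 3 mice against 3 cannot go below 0.1.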

Other observations

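The remaining marker lists overlapped between the groups or were higher in ketamine, and they are given for the cells that make net components. The sum of 12 astrocyte markers was 131261 to 163903 normalized counts in saline mice and 122531 to 156516 in ketamine mice, with overlap. Gfap, Aqp4 and Aldh1l1, which begin that list, also overlapped, and Gfap was highest in saline mouse 10 at 10462 normalized counts against 1996 to 6395 in the other mice. The sums of 10 microglia markers (13969 to 16945 and 14052 to 17143) and of 10 endothelial markers (11731 to 13568 and 11196 to 12232) overlapped, in saline and ketamine in that order. The sum of 10 neuroblast markers was 9441 to 12659.7 in saline and 12857 to 17075 in ketamine, without overlap.

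Kcnc2, a potassium channel gene of fast-spiking neurons, had 3657, 3569 and 3594 normalized counts across saline mice 1, 6 and 10, against 2649.8, 2589.9 and 2335 for ketamine mice 3, 5 and 9. It had a log2 fold change of -0.52, which DESeq2 called (adjusted p = 0.0105) and limma did not (adjusted p = 0.380). The call ended without saline mouse 1, saline mouse 6 or ketamine mouse 3, with adjusted p-values of 0.387, 0.377 and 0.120 by DESeq2. Kcnc1, the related channel of the same cells, had 6042, 4910.4 and 6211 in saline and 5435, 5521 and 3393 in ketamine, with overlap. Neurod6, a transcription factor of cortical excitatory neurons, had 3365, 3275 and 4051 in saline and 856, 1884 and 1663 in ketamine (adjusted p = 0.00459 by DESeq2 and 0.368 by limma). That call ended without saline mouse 1 or 6 (adjusted p = 0.0763 and 0.0596).

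Some net-related genes outside the naming rule were picked after their values were seen, because their groups did not overlap. Adamts5, a protease that cuts lecticans, had 69.9, 47.3 and 78.0 normalized counts across saline mice 1, 6 and 10, against 131, 79.0 and 162 for ketamine mice 3, 5 and 9, where mouse 5 was barely above the highest saline mouse. Timp3, an inhibitor of such proteases, had 2482, 2512 and 3197 in saline and 4422, 3418 and 3714 in ketamine. Tnc, the tenascin most abundant during development, had 172, 160.2 and 177 in saline and 131, 125 and 139 in ketamine, the opposite direction to these 2 genes. None of these 3 genes was called by limma or DESeq2.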
